A study of Mus musculus with 14 samples.

Results

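The nuclear-encoded subunits of the mitochondrial respiratory chain were measured in 14 libraries of mouse skin. Members were taken by gene name from the deposited counts table: Ndufa, Ndufb, Ndufc, Ndufs or Ndufv followed by a number, Sdha to Sdhd, names that begin with Uqcr or Atp5, and the cytochrome c oxidase families Cox4 to Cox7. Of 56953 gene rows, 83 had such a name, and 81 of these had at least 10 counts over the 14 libraries. The 2 rows left out, Cox7b2 and a second Atp5o row, were at 0. By complex, 37 members belong to complex I, 4 to complex II, 8 to complex III and 15 to complex IV. The other 17 belong to complex V, the ATP synthase. Members were placed by name, so Ndufa4, now assigned to complex IV, counts with complex I throughout. The filter on low counts passed 80 of them to the tests, and Cox4i2, with 17 counts in all, was not tested.

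The groups crossed 3 genotypes with a treatment. Knockout skin came from NEDD8fl/fl mice positive for K14-CreERT, a recombinase driven by a keratinocyte promoter, and gave 2 libraries with imiquimod (IMQ) and 3 with DMSO. Cre-negative skin came from NEDD8fl/fl mice without that recombinase and gave 2 libraries with imiquimod and 3 with DMSO. From wild-type C57BL/6J mice there were 2 libraries per treatment. Imiquimod, an activator of Toll-like receptor 7 that gives mice a psoriasis-like inflammation, was applied as a daily cream at 5% from day 0 to day 7. Induction of the knockout took 5 days before that, and no induction is given for the other genotypes. No library had the cream base alone, and the labels do not say whether a library came from back or ear. The labels do not name the animal behind a library, so p-values measure spread between samples, which may be technical. The design text names an inhibitor of NEDD8 and a 3 day treatment of wild-type mice, which differs from the labels used here. NEDD8 is a small protein that activates cullin ubiquitin ligases when attached to them.

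The respiratory chain passes electrons from NADH, through complex I, and from succinate, through complex II, to ubiquinone, then through complex III and cytochrome c to complex IV, where oxygen is reduced. Complexes I, III and IV pump protons across the inner mitochondrial membrane, and complex V lets them flow back to make ATP. Most subunits are encoded in the nucleus and imported, while a small set in complexes I, III, IV and V is encoded by mitochondrial DNA. Nuclear respiratory factor 1 and the GABP factor of the ETS family are known activators of many of the nuclear genes.

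Promoters are shown for 3 members that carry the results below: Cox6a1 and Cox6b1, which stood out in imiquimod-treated knockout skin, and Cox7a1, the heart and skeletal muscle isoform, which stood out in the DMSO comparison. Each line gives the 250 bases upstream of the start in RefSeq's annotation of GRCm38.p6, read 5′ to 3′ on the strand of the gene. Capitals mark matches to GCATGCG, the core of the motif of nuclear respiratory factor 1, and to CCGGAAG, an ETS motif, either of which may stand as its reverse complement.
Cox6a1 (chr5:115348959-115349208, minus strand): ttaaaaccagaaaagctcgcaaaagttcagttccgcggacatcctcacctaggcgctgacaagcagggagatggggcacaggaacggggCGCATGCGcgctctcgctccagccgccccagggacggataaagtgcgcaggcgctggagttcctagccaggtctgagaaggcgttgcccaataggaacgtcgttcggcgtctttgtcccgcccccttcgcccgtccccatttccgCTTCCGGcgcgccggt
Cox6b1 (chr7:30626115-30626364, minus strand): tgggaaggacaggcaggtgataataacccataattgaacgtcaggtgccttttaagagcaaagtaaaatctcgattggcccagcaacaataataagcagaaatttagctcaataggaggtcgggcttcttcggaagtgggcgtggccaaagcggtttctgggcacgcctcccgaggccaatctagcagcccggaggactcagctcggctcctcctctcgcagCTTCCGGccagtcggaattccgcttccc
Cox7a1 (chr7:30183921-30184170, plus strand): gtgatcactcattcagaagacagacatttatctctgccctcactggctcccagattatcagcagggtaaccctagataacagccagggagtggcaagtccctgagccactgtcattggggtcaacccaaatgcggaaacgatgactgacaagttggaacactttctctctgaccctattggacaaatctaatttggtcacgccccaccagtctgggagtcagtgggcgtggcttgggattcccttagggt
In Cox6a1 the first motif occurs on both strands, in overlapping matches that begin 161 and 160 bases before the start, and the ETS motif begins 16 bases before it, and in Cox6b1 the ETS motif begins 28 bases before the start. The window of Cox7a1 holds neither set of letters. A promoter entry was matched for 66 of the 81 members. On either strand, GCATGCG occurred in 9 of these 66 (13.6%) and in 3.43% of 27025 genes with upstream windows of the same length. Where a gene had several promoter entries, a match in any of them counted. CCGGAAG occurred in 12 of 66 (18.2%) against 7.83% of all. AAGATGGCG, a YY1 motif, occurred in 1 of 66 (1.52%), Atp5j, against 0.71% of all. A match of letters is a description and shows no binding.

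Libraries held 5552954 to 34362477 counts, and 79 to 81 members were detected in each. Each count is a tag near the 3′ end of a transcript. Levels are given as CPM (counts scaled to a common library size) after TMM scaling, a correction for library composition whose factors were 0.665 for replicate 1 of wild-type skin with imiquimod, 0.708 for replicate 1 of knockout skin with DMSO, 0.713 for replicate 2 of Cre-negative skin with imiquimod, and 0.902 to 1.37 for the other 11. The share of 18S ribosomal RNA ran from 3.84% to 19.1%, with 17.5% and 19.1% in those knockout and Cre-negative libraries. By Xist and Y-chromosome counts, the wild-type and the knockout DMSO libraries were female, both imiquimod groups of NEDD8fl/fl genotype were male, and Cre-negative DMSO skin held 2 male and 1 female library. Nedd8, the targeted gene, averaged 229 ± 111 CPM in knockout and 388 ± 104 CPM in Cre-negative skin with imiquimod (SD, n = 2 each), and 226 ± 129 CPM in knockout and 313 ± 40.0 CPM in Cre-negative skin with DMSO (SD, n = 3 each). Neither difference passed the threshold (edgeR adjusted p = 0.33 and 0.40). The deleted exons are not named in the labels. A tag count of Nedd8 may lie outside them and cannot check the genotype.

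Respiratory chain tags made up a smaller part of the RNA in imiquimod-treated knockout skin than in any other library. The 81 members took 0.857% and 0.971% of all counts in the 2 knockout imiquimod libraries, against 1.15% to 1.45% in the other 12, with no scaling applied. After TMM scaling the summed level was 8571 and 8656 CPM in knockout imiquimod skin and 13490 and 20220 CPM in Cre-negative imiquimod skin. With DMSO the sums were 17640, 10910 and 12460 CPM in knockout skin and 11870, 10000 and 10660 CPM in Cre-negative skin. Wild-type skin held 18280 and 13460 CPM with imiquimod and 9813 and 10580 CPM with DMSO. The 2 knockout imiquimod libraries were thus the lowest on either scale, while the highest sums after scaling came from the 3 libraries with the smallest factors. By complex, the sums were 2252 and 2573 CPM in knockout imiquimod skin against 4505 and 6416 CPM in Cre-negative imiquimod skin for complex V, and 192 and 252 CPM against 318 and 341 CPM for complex II. In whole skin, fewer cells of a type and less RNA per cell cannot be told apart.

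**Figure D1:**
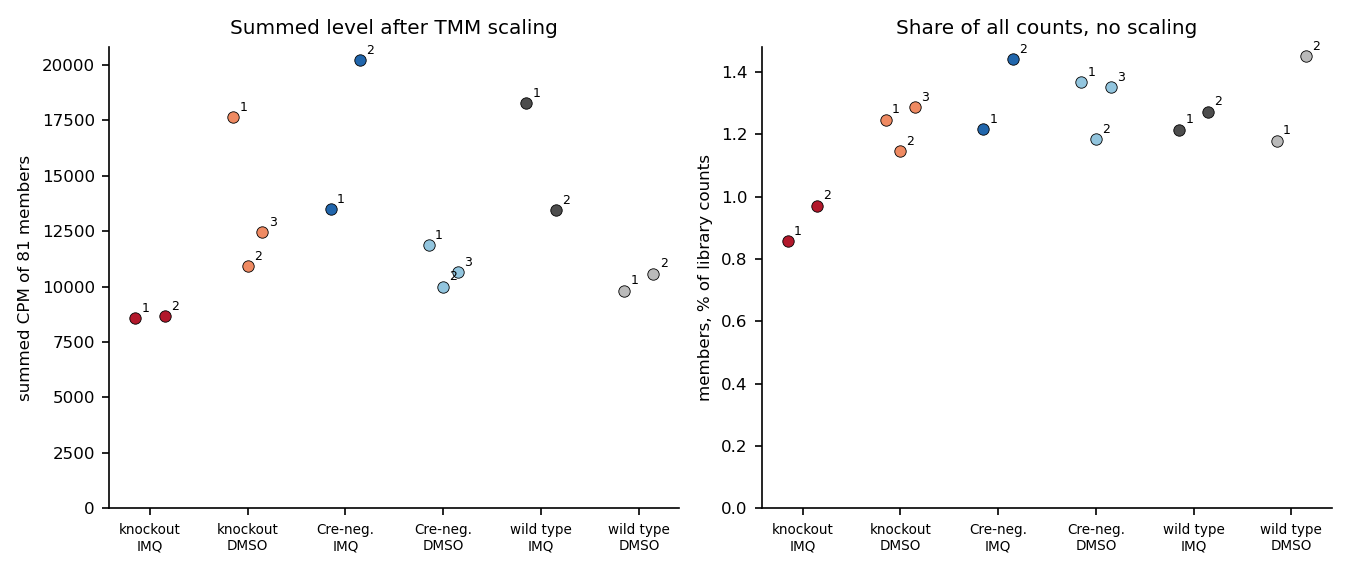
Summed CPM of the 81 members after TMM scaling (left) and their percent of all library counts without scaling (right), 1 point per library, numbered by replicate, for 6 groups. The 2 knockout imiquimod libraries are lowest in both panels, at 8571 and 8656 CPM and at 0.857% and 0.971%.

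Under imiquimod, many nuclear-encoded subunits of complexes I, III, IV and V were lower in knockout than in Cre-negative skin. Of the 80 tested members, 27 fell and 0 rose at an adjusted p under 0.05 (edgeR's quasi-likelihood test, Benjamini-Hochberg over 16027 genes). Among all genes tested, 6.33% fell and 11.6% rose. The median log2 fold change of the members was −1.09, against 0.02 for all genes, and 76 of 80 lay below 0, as did 48.7% of all genes. In 61 of 80 members both knockout libraries lay below both Cre-negative libraries, against 25.3% of all genes, and in 1 member both lay above, against 30.7%. An unadjusted p under 0.05 was reached by 48 members and by 31.1% of all genes, and DESeq2 called 32, of which 0 rose. The 27 calls comprised 12 of 37 members in complex I, 3 of 8 in complex III, 4 of 14 in complex IV and 8 of 17 in complex V. In complex II 0 of 4 passed in edgeR or DESeq2, 0 had an unadjusted p under 0.05, and the 4 log2 fold changes ran from −1.19 to −0.05. The count fell to 1 without knockout replicate 1, to 9 without knockout replicate 2 and to 2 without Cre-negative replicate 2, while 68 to 75 of 80 members stayed below 0 in those fits and in that without Cre-negative replicate 1. With library size alone, 6 fell and 69 lay below 0, at a median of −0.67 against 0.42 for all genes.

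**Figure D2:**
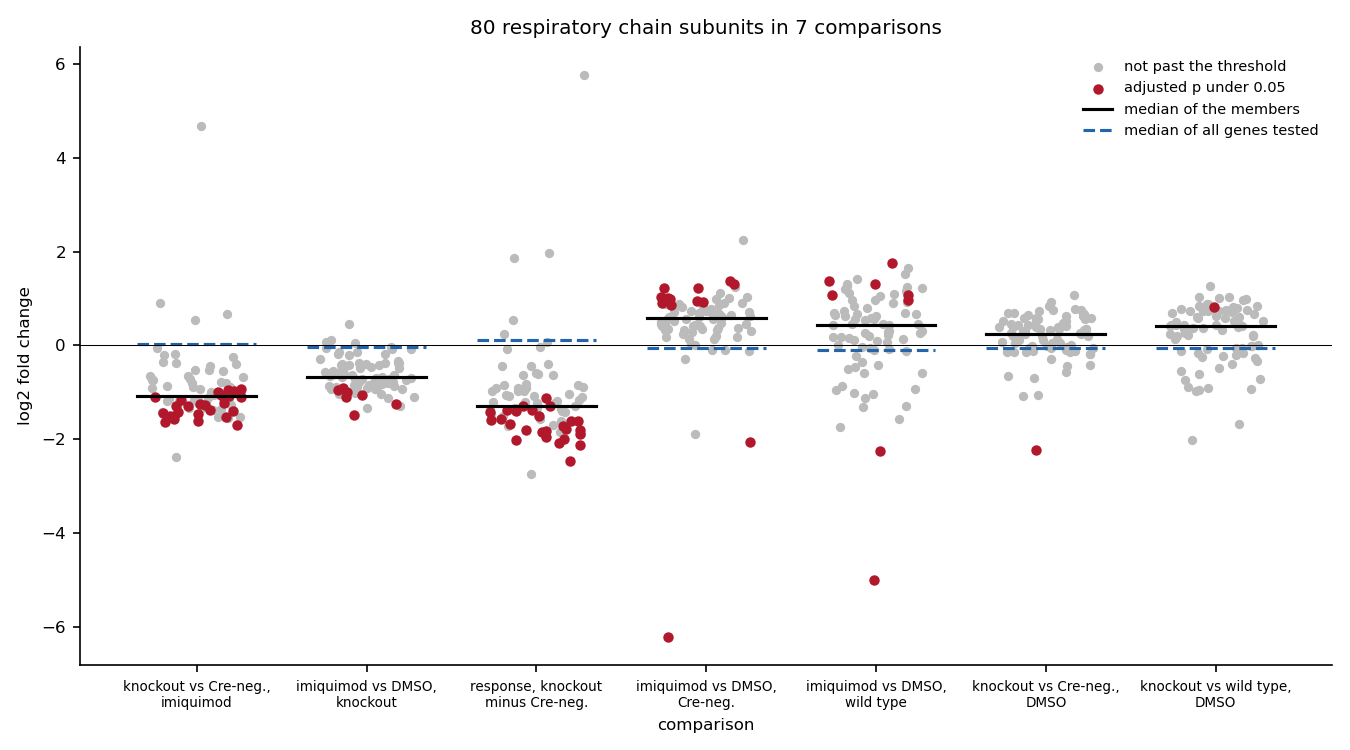
Log2 fold change of each of the 80 tested members in 7 comparisons, red where the adjusted p was under 0.05 (edgeR's quasi-likelihood test), with the median of the members (black) and of all genes tested (dashed). In knockout against Cre-negative skin under imiquimod the members' median is −1.09 and that of all genes 0.02. The outermost points, at −6.22, −5.00, 4.69 and 5.77, belong to Cox6b2, which had at most 25 counts in any library and 0 in both Cre-negative imiquimod libraries, so its fitted values depend on the prior count.

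In complex IV the 4 members that fell were Cox6a1, Cox6b1, Cox5b and Cox7b, small subunits around the catalytic core. Cox6a1 (ENSMUSG00000041697.10, chr5:115483701-115487040 on GRCm39, minus strand), the ubiquitous counterpart of the muscle subunit Cox6a2, had 79.9 and 86.0 CPM in knockout imiquimod skin, against 214 and 258 CPM in Cre-negative imiquimod skin. Its level was 171, 128 and 137 CPM in knockout DMSO skin and 98.9, 98.2 and 106 CPM in Cre-negative DMSO skin, and 170 and 179 CPM with imiquimod and 88.9 and 89.0 CPM with DMSO in wild-type skin. The knockout imiquimod libraries were thus the lowest of all 14 and the Cre-negative imiquimod libraries the highest, with no overlap. Its log2 fold change under imiquimod was −1.51 ± 0.28 (SE, edgeR adjusted p = 0.0031), and Cox6a1 kept the call in 4 of 4 fits that left out 1 library. Of the other 26 members called, Uqcrc2 kept it in 3 of 4 such fits, Cox5b, Atp5d, Atp5h, Uqcrb and Ndufb11 in 2, and the rest in 1 or 0.

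Cox6b1, which faces the intermembrane space and helps join the enzyme into dimers, had 191 and 196 CPM in knockout and 364 and 829 CPM in Cre-negative imiquimod skin. The Cre-negative libraries differed from each other more widely than the nearer of them did from the knockout pair. Its log2 fold change was −1.63 ± 0.41 (SE, edgeR adjusted p = 0.016). Cox5b, a peripheral subunit on the matrix side, had 40.6 and 52.3 CPM in knockout and 119 and 166 CPM in Cre-negative imiquimod skin (log2 fold change −1.62 ± 0.36 SE, edgeR adjusted p = 0.0083). Cox7b, a small membrane subunit, fell by 1.40 ± 0.38 on the log2 scale (SE, edgeR adjusted p = 0.022). Cox4i1 and Cox5a, which enter the enzyme early in its assembly, had log2 fold changes of −1.11 ± 0.46 and −0.94 ± 0.33 and did not pass (edgeR adjusted p = 0.11 and 0.062). Cox7a2, the ubiquitous counterpart of Cox7a1, stood at −0.89 ± 0.34 (edgeR adjusted p = 0.092). Cox7a2l, which acts in the assembly of respiratory supercomplexes, stood at −0.20 ± 0.45 (edgeR adjusted p = 0.80).

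**Figure D3:**
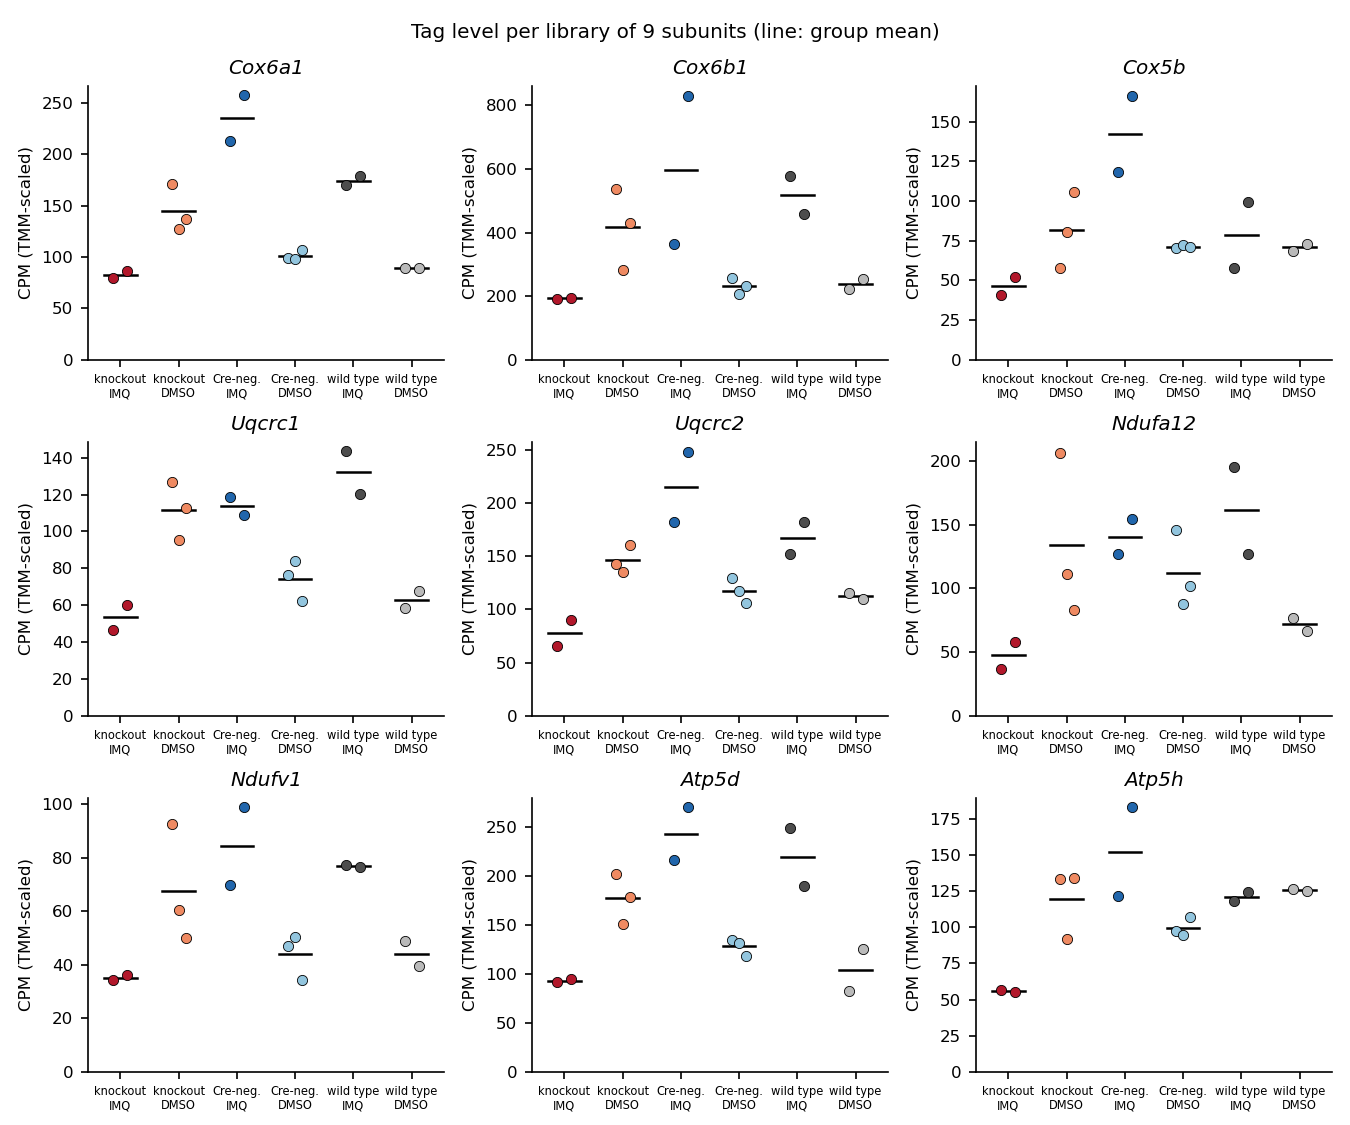
CPM after TMM scaling of 9 members in each of the 14 libraries, by group, with a line at the group mean. In each panel the 2 knockout imiquimod points lie below both Cre-negative imiquimod points, for Cox6a1 at 79.9 and 86.0 CPM against 214 and 258 CPM.

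Complex III showed the lower level in both of its large core proteins. Uqcrc2 (ENSMUSG00000030884.13) had 65.6 and 90.1 CPM in knockout and 182 and 248 CPM in Cre-negative imiquimod skin, and the groups did not overlap. With DMSO its libraries lay closer, at 143, 135 and 160 CPM in knockout and 130, 117 and 106 CPM in Cre-negative skin. The log2 fold change under imiquimod was −1.47 ± 0.30 (SE, edgeR adjusted p = 0.0052). Uqcrc1, its partner, had 46.6 and 60.2 CPM in knockout against 119 and 109 CPM in Cre-negative imiquimod skin (log2 fold change −1.09 ± 0.29 SE, edgeR adjusted p = 0.020). Uqcrb, a small subunit near the ubiquinone site, fell by 1.53 ± 0.42 on the log2 scale (SE, edgeR adjusted p = 0.024). Uqcrfs1, the Rieske iron-sulfur protein, had 28.6 and 102 CPM in knockout and 148 and 151 CPM in Cre-negative imiquimod skin and did not pass (edgeR adjusted p = 0.30), and its knockout libraries lay further from each other than the nearer one lay from the Cre-negative pair.

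In complex I the members that fell included all 3 flavoprotein-module subunits and accessory subunits of both arms. Ndufv1, the flavoprotein that takes electrons from NADH, had 34.1 and 36.0 CPM in knockout against 69.6 and 99.0 CPM in Cre-negative imiquimod skin (log2 fold change −1.27 ± 0.35 SE, edgeR adjusted p = 0.023). Its neighbours Ndufv2 and Ndufv3 stood at −1.09 ± 0.29 and −1.52 ± 0.40 and fell as well (edgeR adjusted p = 0.019 and 0.020). Ndufa12, an accessory subunit added late in assembly, had 37.0 and 58.0 CPM in knockout and 127 and 155 CPM in Cre-negative imiquimod skin. For Ndufa12 the knockout imiquimod libraries were the lowest 2 of the 14 (log2 fold change −1.57 ± 0.44 SE, edgeR adjusted p = 0.026). Ndufb11, an accessory subunit of the membrane arm, had 16.6 and 21.2 CPM in knockout and 51.7 and 70.7 CPM in Cre-negative imiquimod skin (log2 fold change −1.70 ± 0.41 SE, edgeR adjusted p = 0.013). Its exons overlap Rbm10 on the opposite strand by 117 bases, with 9374 counts for Rbm10 and 9660 for Ndufb11 in all, and without a stated strand setting reads of the pair cannot be told apart.

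Among core subunits of the matrix arm, Ndufv1 and Ndufv2 passed the test, while Ndufs1, Ndufs3, Ndufs7 and Ndufs8 did not. Ndufs1, the largest core subunit, had 48.3 and 56.7 CPM in knockout and 74.0 and 59.9 CPM in Cre-negative imiquimod skin (log2 fold change −0.35 ± 0.34 SE, edgeR adjusted p = 0.52). The groups did not overlap, and the fold change of Ndufs1 was smaller than that of any of the 27 members called. Ndufa4, first assigned to complex I and now to complex IV, was kept with complex I by its name. It had the lowest fold change of all members, at −2.39 ± 0.88 SE, without passing (edgeR adjusted p = 0.076). Its values were 24.4 and 65.4 CPM in knockout and 215 and 256 CPM in Cre-negative imiquimod skin.

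In complex V 8 of 17 members fell, among them subunits of the catalytic head and of both stalks, while the other 9, which lay at −1.52 to −0.39 on the log2 scale, did not pass. Atp5b and Atp5a1, the beta and alpha subunits of the catalytic head, stood at −1.09 ± 0.33 and −0.98 ± 0.30 on the log2 scale (SE, edgeR adjusted p = 0.037 and 0.039). Atp5b had 204 and 250 CPM in knockout and 436 and 528 CPM in Cre-negative imiquimod skin. Atp5d, the delta subunit of the central stalk, had 91.5 and 94.2 CPM in knockout against 216 and 270 CPM in Cre-negative imiquimod skin (log2 fold change −1.39 ± 0.31 SE, edgeR adjusted p = 0.0088). Atp5h, subunit d of the peripheral stalk, had 56.9 and 55.0 CPM in knockout and 122 and 183 CPM in Cre-negative imiquimod skin (log2 fold change −1.45 ± 0.30 SE, edgeR adjusted p = 0.0062). For Atp5h, the 12 other libraries held 92.1 CPM or more, so the knockout imiquimod pair stood clear of all of them. Atp5c1, Atp5g1, Atp5pb and Atp5mpl also fell, by 0.96 to 1.24 on the log2 scale (edgeR adjusted p between 0.017 and 0.043). Atp5pb overlaps Wdr77 on the opposite strand.

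Complex II, the succinate dehydrogenase, had no member called. Sdha, its flavoprotein, had 81.6 and 90.4 CPM in knockout and 105 and 72.5 CPM in Cre-negative imiquimod skin, with overlapping groups (log2 fold change −0.05 ± 0.35 SE, edgeR adjusted p = 0.95). Sdhb, the iron-sulfur subunit, stood at −0.66 ± 0.46 (edgeR adjusted p = 0.35), and the membrane anchors Sdhc and Sdhd stood at −1.19 ± 0.85 and −0.73 ± 1.14 (edgeR adjusted p = 0.37 and 0.71). Only 4 members had a fold change above 0 in this comparison: Cox6a2, Cox6b2, Cox6c2 and Ndufa2, named after their values were seen. Ndufa2, an accessory subunit of the matrix arm, had 374 and 235 CPM in knockout and 175 and 244 CPM in Cre-negative imiquimod skin, which overlap (log2 fold change 0.54 ± 0.47 SE, edgeR adjusted p = 0.47).

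Across all 14 libraries, 20 of 80 members had both knockout imiquimod libraries below the other 12, against 5.48% of all genes tested. Without composition scaling this held for 23 of 80 members, against 3.01% of all genes. Cox6a1, Cox6b1, Ndufa12, Atp5h and Atp5a1 were among them on both scales, and no member of complex II was on either.

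**Figure D4:**
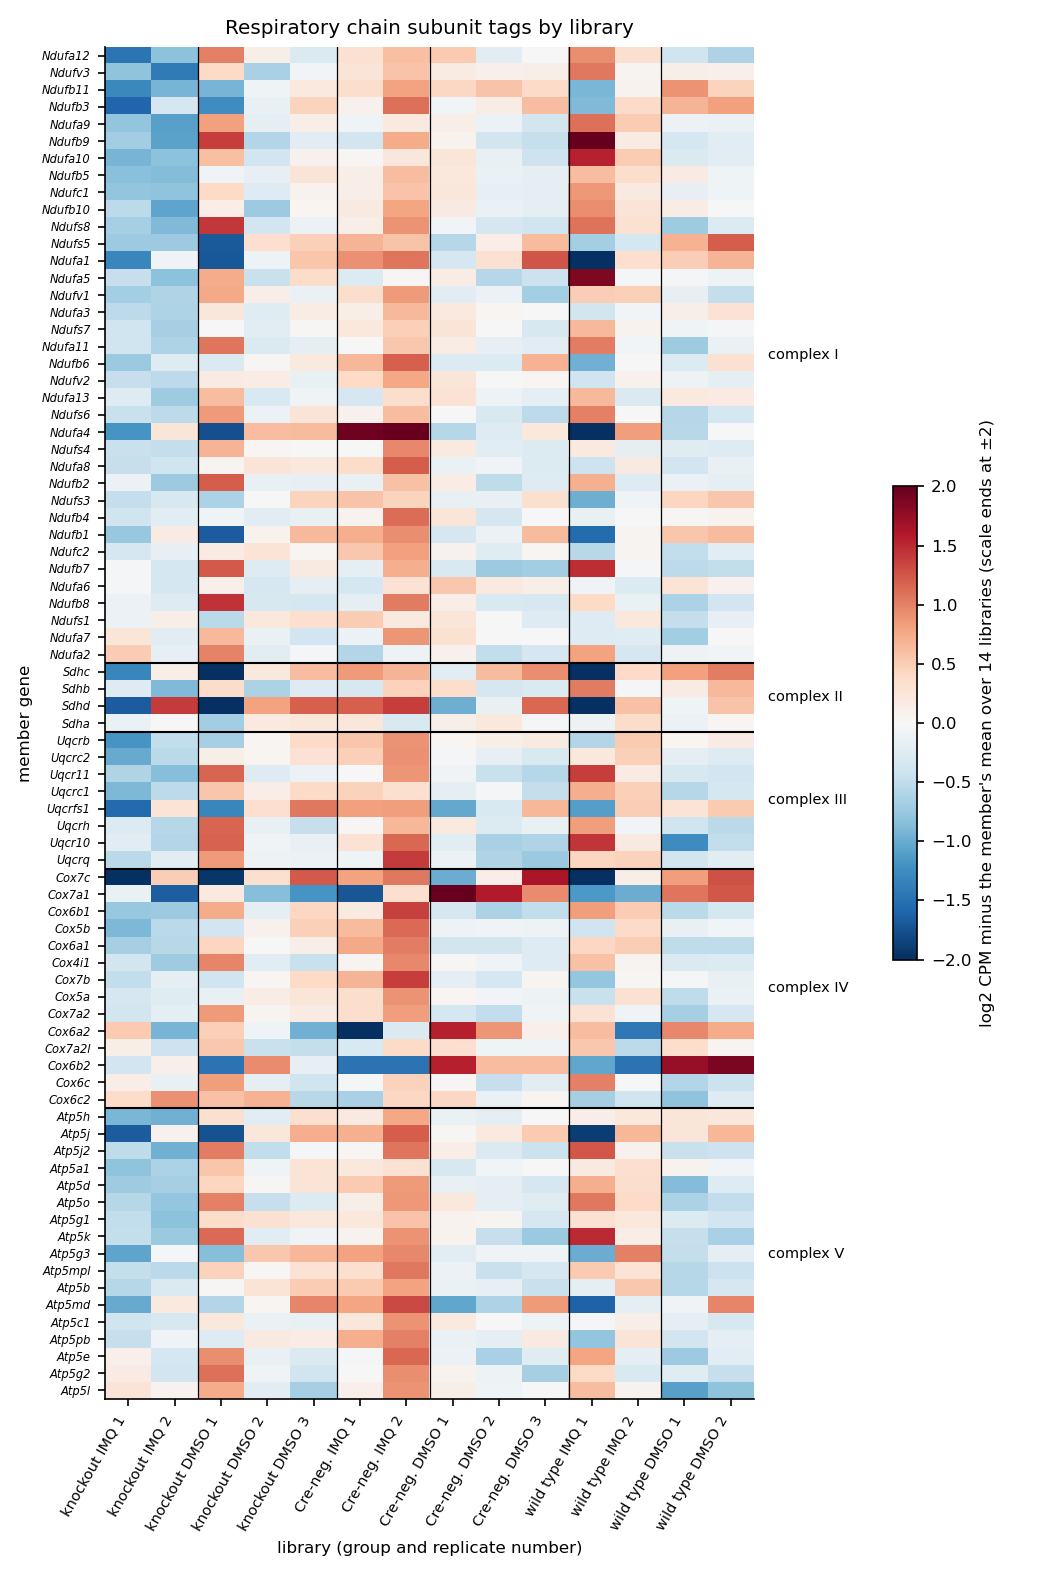
Log2 CPM of 79 of the 80 tested members minus each member's mean over the 14 libraries, rows by complex and columns by group with replicate numbers. The 2 knockout imiquimod columns are mostly blue in complexes I, III, IV and V, and a set of rows that includes Sdhd and Cox7c is darkest in knockout imiquimod replicate 1, knockout DMSO replicate 1 and wild-type imiquimod replicate 1.

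Markers of other cell types moved in the same comparison. Of 10 keratinocyte markers 0 rose, 2 fell (Krt1 and Krt10) and all 10 lay below 0, with a summed level of 13240 and 22270 CPM in knockout and 39860 and 29420 CPM in Cre-negative imiquimod skin. Of 10 neutrophil markers 7 rose and 2 lay below 0. Their sums were 115600 and 54720 CPM in knockout and 86030 and 192900 CPM in Cre-negative imiquimod skin. Of 5 endothelial markers 4 rose and 0 lay below 0 (310 and 138 CPM against 29.7 and 36.6 CPM). Of 6 macrophage markers 2 rose and 1 lay below 0 (1541 and 734 CPM against 245 and 685 CPM). Of 22 skeletal muscle markers 1 rose and 2 lay below 0, at a median log2 fold change of 0.92. Of 8 sebocyte markers 3 fell (Far2, Awat1 and Awat2) and 7 lay below 0, with sums of 710 and 452 CPM in knockout and 484 and 537 CPM in Cre-negative imiquimod skin. In the brown adipocyte list 2 of 3 genes were tested. Elovl3 fell (log2 fold change −10.3), while Cox8b stood at 0.66 and was not called. The sums over the list were 18.2 and 8.15 CPM in knockout and 136 and 217 CPM in Cre-negative imiquimod skin. Since the 2 tested genes went opposite ways, these sums were not read as a level of brown adipocytes. Of 11 white adipocyte markers 1 fell (Adig) and 6 lay below 0, at a median of −0.24. Of 7 fibroblast markers 1 rose (Pdgfra), while 4 lay below 0, at a median of −0.22. Apart from Ucp1 of the brown adipocyte list in Cre-negative skin, no marker of these lists was at 0 in all libraries of either group. The part of these shifts in the lower subunit levels was not tested.

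Members are short transcripts, and short transcripts of other genes moved in the same comparison. The longest coding transcript of the members had a median length of 870 bases, against 3096 bases over 13834 genes, with a value for 78 of the 80 tested members. The 773 other genes with 1000 bases or fewer had a median log2 fold change of −0.40 under imiquimod, and 64.4% lay below 0. The difference between Cre-negative imiquimod replicate 2 and replicate 1 ran against transcript length (Spearman's rho −0.345 across 13834 genes, which are not independent replicates). The 773 short genes shifted in the members' direction in the other comparisons too. For imiquimod in Cre-negative skin their median was 0.48, beside 0.58 for members with a length. In knockout skin it was −0.30 beside −0.69, and in wild-type skin 0.18 beside 0.45. For knockout minus Cre-negative response it was −0.77 beside −1.31. In knockout DMSO skin it was 0.30 beside 0.26 against Cre-negative skin, and 0.29 beside 0.41 against wild-type skin. The part of transcript length in the members' values was not tested.

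Knockout and Cre-negative skin were then compared by the difference of their log2 fold changes to imiquimod. Of the 80 members 26 had a lower response in knockout skin and 0 a higher one, against 9.63% and 14% of all genes. The median difference was −1.30 on the log2 scale, against 0.11 for all genes, and 74 of 80 lay below 0, as did 47.4% of all genes. By complex these were 10 of 37 in complex I, 0 of 4 in complex II, 5 of 8 in complex III, 5 of 14 in complex IV and 6 of 17 in complex V. Unadjusted p-values under 0.05 were found for 46 members and 38.3% of all genes, and DESeq2 called 33, of which 0 were higher. The lowest of the 26 differences were those of Cox6b1 (−2.47 ± 0.52 SE, edgeR adjusted p = 0.0062), Ndufs8, an iron-sulfur core subunit of complex I (−2.12 ± 0.68 SE, edgeR adjusted p = 0.038), Uqcr10, a small subunit of complex III (−2.09 ± 0.68 SE, edgeR adjusted p = 0.040), and Cox6a1 (−2.03 ± 0.35 SE, edgeR adjusted p = 0.0025). Cox6a1, Cox6b1, Atp5d, Atp5h and Atp5mpl kept the call in 10 of 10 fits that left out 1 library. The count was 6 without knockout imiquimod replicate 1, 9 (8 lower and 1 higher) without Cre-negative imiquimod replicate 2, and 13 to 16 without knockout imiquimod replicate 2 or any 1 of the Cre-negative DMSO libraries. All knockout imiquimod libraries were male and all knockout DMSO libraries female, so the knockout response cannot be told apart from sex. Cre-negative imiquimod libraries were male and Cre-negative DMSO libraries of both sexes. A sex term left 8 calls. With library size alone 4 members were called higher and 2 lower.

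In Cre-negative skin subunit levels were higher with imiquimod after TMM scaling. Of 80 members 11 rose and 2 fell, against 8.15% and 10.1% of all genes, and 7 lay below 0, as did 52.4% of all genes, at a median log2 fold change of 0.58 against −0.06 for all genes. The rises spanned complexes I (Ndufv1 and Ndufa8), III (Uqcrc2 and Uqcrq), IV (Cox6b1, Cox6a1, Cox7b and Cox5b) and V (Atp5mpl, Atp5d and Atp5b). Cox6a1 rose by 1.22 ± 0.24 on the log2 scale (SE, edgeR adjusted p = 0.0042) and was called in 5 of 5 fits that left out 1 library. Cox6b1 had 364 and 829 CPM with imiquimod and 256, 208 and 231 CPM with DMSO (log2 fold change 1.37 ± 0.36 SE, edgeR adjusted p = 0.019). Ndufa4 had 215 and 256 CPM with imiquimod and 37.2, 46.1 and 64.1 CPM with DMSO. The groups did not overlap, and this was the highest fold change of the members in this comparison, without passing the test (log2 fold change 2.26 ± 0.76 SE, edgeR adjusted p = 0.053). The count of calls was 2 without imiquimod replicate 2 and 1, 2 and 4 without DMSO replicates 1, 2 and 3. By Xist and Y-linked counts both imiquimod libraries were male and 1 of the 3 DMSO libraries was female, and a sex term left 4 calls, of which 2 rose. With library size alone 0 members rose and 4 fell, 41 of 80 lay below 0, and the median was −0.03 against −0.63 for all genes.

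In wild-type skin 6 of 80 members rose with imiquimod and 2 fell, against 9.59% and 11.8% of all genes, shares no higher than over all genes. Those that rose were Uqcr10, Ndufa10, Atp5l, Atp5d, Uqcrc1 and Cox6a1. Cox6a1 rose by 0.97 ± 0.27 on the log2 scale (SE, edgeR adjusted p = 0.023), with the libraries as given above for wild-type skin. Uqcrc1 had 144 and 121 CPM with imiquimod and 58.4 and 67.7 CPM with DMSO, which did not overlap (log2 fold change 1.07 ± 0.29 SE, edgeR adjusted p = 0.020). Uqcr10 had 446 and 188 CPM with imiquimod and 69.3 and 118 CPM with DMSO (log2 fold change 1.76 ± 0.53 SE, edgeR adjusted p = 0.032). The median was 0.44 against −0.09 for all genes, and with library size alone −0.29 against −0.76. Library size alone gave 0 that rose and 7 that fell, and upper-quartile scaling gave 3 and 3. The count was 0 without imiquimod replicate 1, 19 without imiquimod replicate 2, and 1 and 2 without DMSO replicates 1 and 2. Without imiquimod replicate 1, 8 members had an unadjusted p under 0.05.

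Knockout skin went the other way under imiquimod. Of 80 members 7 fell and 0 rose, against 2.52% and 8.56% of all genes, and 76 lay below 0, as did 51.6% of all genes, at a median log2 fold change of −0.68 against −0.04 for all genes. The 7 were Ndufa12 and Ndufa9 of complex I, Uqcrc1 and Uqcrc2 of complex III, and Atp5h, Atp5a1 and Atp5g1 of complex V. Atp5h had 56.9 and 55.0 CPM with imiquimod and 134, 92.1 and 135 CPM with DMSO (log2 fold change −1.10 ± 0.28 SE, edgeR adjusted p = 0.023). Ndufa9, an accessory subunit at the junction of the 2 arms, had 35.6 and 29.1 CPM with imiquimod and 109, 54.5 and 67.5 CPM with DMSO (log2 fold change −1.25 ± 0.34 SE, edgeR adjusted p = 0.030). Unadjusted p-values under 0.05 were found for 24 members and 26.4% of all genes, and DESeq2 called 11, of which 0 rose. All knockout imiquimod libraries were male and all knockout DMSO libraries female, so treatment and sex cannot be told apart within knockout skin. With a sex term in the model of all groups 0 members were called and 9 had an unadjusted p under 0.05. The count was 0 without DMSO replicate 1 or imiquimod replicate 1 (15 and 10 members with an unadjusted p under 0.05), and 1 without DMSO replicate 3 or imiquimod replicate 2. The comparisons of imiquimod with DMSO in knockout skin, of knockout with Cre-negative skin under imiquimod and of the 2 responses share the knockout imiquimod libraries, so their calls are not independent.

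Without imiquimod few nuclear-encoded subunits were called by genotype. In knockout against Cre-negative DMSO skin 1 of 80 members fell and 0 rose, where 15.7% and 14% of all genes did. The members' median was 0.25 against −0.06 for all genes, and 9 members and 41.5% of all genes had an unadjusted p under 0.05. DESeq2 called 4 higher and 1 lower. The member that fell was Cox7a1, and 3 were called without knockout replicate 2. Cox6a1 had a log2 fold change of 0.52 ± 0.22 SE without passing (edgeR adjusted p = 0.092), and Cox6b1 one of 0.85 ± 0.33 SE (edgeR adjusted p = 0.067). In knockout against wild-type DMSO skin, where all 5 libraries were female, 1 of 80 members rose and 0 fell, against 11.3% and 14.4% of all genes. This was Uqcrc1, with 127, 95.2 and 113 CPM in knockout and 58.4 and 67.7 CPM in wild-type skin (log2 fold change 0.82 ± 0.27 SE, edgeR adjusted p = 0.038). That call was kept in 1 of 5 fits that left out 1 library: the count was 0 without either wild-type library (1 and 6 members with an unadjusted p under 0.05) and 3 without knockout replicate 2. With the replicate number as a block Uqcrc1 was lost (edgeR adjusted p = 0.052) and 3 other members fell. DESeq2 called 8 higher and 1 lower. The members' median was 0.41 against −0.06, and with library size alone −0.11 against −0.51.

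Complex IV has muscle isoforms of some subunits, among them Cox7a1 and Cox6a2. Cox7a1 (ENSMUSG00000074218.4, chr7:29883569-29885503 on GRCm39, plus strand) had 24.7, 11.8 and 9.39 CPM in knockout DMSO skin, against 107, 64.7 and 41.3 CPM in Cre-negative and 45.2 and 50.9 CPM in wild-type DMSO skin. With imiquimod it had 19.6 and 6.73 CPM in knockout, 6.46 and 27.3 CPM in Cre-negative and 9.56 and 10.7 CPM in wild-type skin. The 5 control libraries with DMSO were thus all above the other 9. Cox7a1 fell in knockout against Cre-negative DMSO skin (log2 fold change −2.24 ± 0.56 SE, edgeR adjusted p = 0.0095, called in 6 of 6 fits that left out 1 library). By Xist and Y-linked counts the knockout DMSO libraries were all female and the Cre-negative DMSO libraries 2 male and 1 female, and with a sex term the call was lost (edgeR adjusted p = 0.21). Cox7a1 also fell with imiquimod in Cre-negative skin (−2.06 ± 0.65 SE, edgeR adjusted p = 0.042, kept in 2 of 5 such fits) and in wild-type skin (−2.25 ± 0.69 SE, edgeR adjusted p = 0.033, kept in 0 of 4). Cox6a2, the muscle counterpart of Cox6a1, had 58.1, 39.2 and 21.5 CPM in knockout and 123, 76.8 and 44.7 CPM in Cre-negative DMSO skin, and the groups overlapped. None of its contrasts passed (edgeR adjusted p = 0.084 to 0.97).

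Skeletal muscle and white adipocyte markers moved with Cox7a1. The sum of 22 muscle markers was 2797 to 4964 CPM in knockout DMSO skin, against 12050 to 31750 CPM in Cre-negative and 13350 and 16840 CPM in wild-type DMSO skin. With imiquimod it was 2282 and 6370 CPM in knockout, 1569 and 2766 CPM in Cre-negative and 2527 and 6480 CPM in wild-type skin. Of the 22 markers 19 fell in knockout against Cre-negative DMSO skin, 22 with imiquimod in Cre-negative skin and 13 with imiquimod in wild-type skin. The sum of 11 white adipocyte markers was 1229 to 3824 CPM in the 5 control DMSO libraries and 214 to 900 CPM in the other 9. Of these 11 markers, 5 fell in knockout against Cre-negative DMSO skin, 7 with imiquimod in Cre-negative skin and 8 with imiquimod in wild-type skin. No marker of either list was at 0 in all libraries of a group. The part of muscle and fat content in the Cox7a1 values was not tested, and muscle tissue below the skin of the sampled site is not described in the labels.

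**Figure D5:**
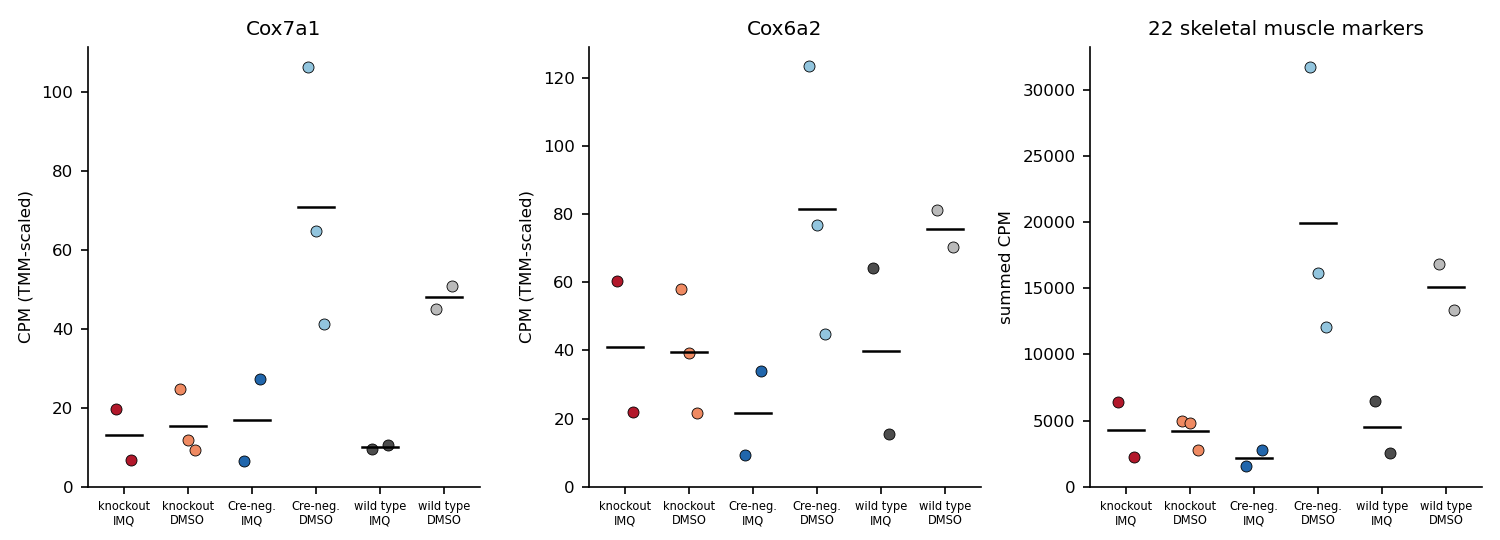
CPM of Cox7a1 and Cox6a2 and the summed CPM of 22 skeletal muscle markers in each library, by group, with a line at the group mean. The 5 Cre-negative and wild-type DMSO libraries are highest in the Cox7a1 panel, at 41.3 to 107 CPM, and in the marker panel, at 12050 to 31750 CPM.

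Cox6b2, known as the testis isoform of Cox6b1, was near the limit of detection. It had 5 counts in the 2 knockout and 0 in the 2 Cre-negative imiquimod libraries, and 13 counts in the 3 knockout and 31 in the 3 Cre-negative DMSO libraries. In Cre-negative skin it fell with imiquimod (edgeR adjusted p = 0.022), and was at least 4.52-fold lower against a floor of 3 counts over the group. Wild-type skin had 1 count with imiquimod and 36 with DMSO (edgeR adjusted p = 0.0093), which is 40.6-fold lower in imiquimod skin, with an exact 95% counting interval of 6.84 to 1648. Floors and intervals cover counting error only, since the reads carry no molecular identifiers. Cox4i2, the isoform of Cox4i1 known from lung and low oxygen, had 17 counts in all libraries together.

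Replicates of 1 group differed sharply in some members. Sdhd, the anchor subunit of complex II, had 6.92 and 59.0 CPM in knockout imiquimod skin, 3.82, 39.1 and 50.9 CPM in knockout DMSO skin and 2.87 and 33.5 CPM in wild-type imiquimod skin. Cox7c, a small subunit of complex IV, had 20.3 and 155 CPM in knockout imiquimod skin, 28.5, 137 and 257 CPM in knockout DMSO skin and 18.7 and 121 CPM in wild-type imiquimod skin. In both genes replicate 1 of these 3 groups was the low library. In all, 14 of 80 members, picked out after their values were seen, had these 3 libraries below the other 11, against 3.92% of all genes. For Sdhd, Cox7c and Sdhc the standard errors of the fold changes were accordingly wide, and 0 of the 7 comparisons passed for any of them. Sdhd had a log2 fold change of −0.73 ± 1.14 SE under imiquimod in knockout against Cre-negative skin, an error wider than the fold change itself.

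Other genes of the mitochondrial energy system were read from lists beside the members. For genes named from these lists, no fit with a sex term or with a library left out is given. Knockout DMSO libraries were all female and Cre-negative DMSO libraries of both sexes. Over all genes tested, a sex term took the calls between these 2 groups from 4752 to 1448. Calls of listed genes in DMSO skin and in the difference of responses thus cannot be told apart from sex. Of the 13 subunits encoded by mitochondrial DNA 7 were tested, since 6 had at most 9 counts in all. Under imiquimod edgeR called 0 of these 7 in knockout against Cre-negative skin, and 0 had an unadjusted p under 0.05, at a median of −0.03 beside −1.09 for the nuclear-encoded members. The difference between the 2 sets was not tested. mt-Co1, the catalytic subunit of complex IV, had 414 and 302 CPM in knockout and 260 and 257 CPM in Cre-negative imiquimod skin (log2 fold change 0.47 ± 0.41 SE, edgeR adjusted p = 0.47). In knockout against Cre-negative DMSO skin all 7 lay below 0, at a median of −0.99, beside 0.25 for the members and −0.06 for all genes. Only mt-Co1 was called there, with 149, 240 and 143 CPM in knockout against 422, 459 and 282 CPM in Cre-negative skin (log2 fold change −1.13 ± 0.34 SE, edgeR adjusted p = 0.022). For the difference of responses 0 of the 7 lay below 0, at a median of 0.96, beside −1.30 for the members. Here too mt-Co1 was the list's only gene called, higher in the knockout by 1.60 ± 0.53 SE (edgeR adjusted p = 0.043).

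Carriers and subunits outside the name rule included Cyc1, cytochrome c1 of complex III. Cyc1 had 37.1 and 42.2 CPM in knockout and 85.2 and 140 CPM in Cre-negative imiquimod skin (log2 fold change −1.51 ± 0.35 SE, edgeR adjusted p = 0.010). Ndufa4l2, a relative of Ndufa4 known to be induced by low oxygen, fell by 1.85 ± 0.59 SE (edgeR adjusted p = 0.045). Together 2 of the 6 tested genes of this list fell. Of 46 tested assembly factors 5 fell and 0 rose in this comparison, beside 6.33% and 11.6% of all genes, at a median of −0.56. Acad9, a complex I assembly factor, had 2.05 and 2.48 CPM in knockout against 22.1 and 10.8 CPM in Cre-negative imiquimod skin (log2 fold change −2.85 ± 0.49 SE, edgeR adjusted p = 0.0022), and it also fell in DMSO skin (−1.99 ± 0.38 SE, edgeR adjusted p = 0.0019). In knockout against Cre-negative DMSO skin 7 of the 46 rose and 2 fell, beside 14% and 15.7% of all genes. Ndufaf4, another complex I factor, was among those that rose, with 98.1, 96.9 and 75.3 CPM in knockout against 33.0, 26.7 and 28.3 CPM in Cre-negative skin (log2 fold change 1.62 ± 0.23 SE, edgeR adjusted p = 0.00029).

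Of 18 genes of the citric acid cycle and pyruvate dehydrogenase 1 fell under imiquimod in knockout against Cre-negative skin, beside 6.33% of all genes. This was Suclg1, of succinyl-CoA ligase (log2 fold change −1.43 ± 0.32 SE, edgeR adjusted p = 0.0081). Of 18 tested genes of protein import and cristae 1 likewise fell in that comparison, Chchd3, a cristae organiser (−1.22 ± 0.26 SE, edgeR adjusted p = 0.0074). In DMSO skin 7 of those 18 rose in the knockout and 0 fell, beside 14% and 15.7% of all genes, among them the chaperonin Hspd1 (1.73 ± 0.34 SE, edgeR adjusted p = 0.0021) and the import channel Tomm40 (1.48 ± 0.30 SE, edgeR adjusted p = 0.0028). The difference of responses was lower in the knockout for 7 of the 18, beside 9.63% of all genes, for example Hspe1, the co-chaperonin of Hspd1 (−2.91 ± 0.62 SE, edgeR adjusted p = 0.0064).

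Regulators of mitochondrial biogenesis counted 17 genes. In DMSO skin 3 fell and 1 rose in the knockout, beside 15.7% and 14% of all genes. Ppargc1a, the coactivator known to drive mitochondrial biogenesis, had 1.53, 1.65 and 1.92 CPM in knockout against 7.16, 6.73 and 6.27 CPM in Cre-negative DMSO skin (log2 fold change −1.95 ± 0.32 SE, edgeR adjusted p = 0.00063). With imiquimod it had 1.29 and 1.68 CPM in knockout and 2.30 and 2.02 CPM in Cre-negative skin, and it fell in Cre-negative skin (−1.64 ± 0.36 SE, edgeR adjusted p = 0.0072). Perm1, a muscle partner of that coactivator, and Ppara, a receptor that controls fatty acid oxidation, also fell in both of these comparisons. Under imiquimod Esrra, an orphan receptor that acts on these genes, fell in knockout against Cre-negative skin, with 14 and 19.7 CPM against 33.6 and 67.9 CPM (log2 fold change −1.60 ± 0.51 SE, edgeR adjusted p = 0.046). Ppargc1a and Perm1 were highest in the 5 control DMSO libraries, as were the summed muscle and white adipocyte markers, whose part in these values was not tested.

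Members resembled each other across libraries to different degrees. The highest Pearson's r of log2 CPM over the 14 libraries linked Atp5k with Uqcr11 (0.986), and Cox6b1 was most like Atp5mpl (0.973), as was Cox6a1 (0.947). Cox7a1 was most like Ndufa6 (0.910), and Sdha most like Ndufs1 (0.687). These values describe libraries that share depth and composition differences and carry no test.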

How the data were processed

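RNA of mouse skin was sequenced as 3′ tags with QuantSeq FWD, per the labels' protocols. The authors deposited one table of raw counts per gene with the summed exon length of each gene, made with featureCounts per the file headers. STAR, DESeq2 and the builds GRCm38 and GRCm39 are listed per the submitters' processing notes. The table's gene positions are on GRCm39. Neither the strand option nor the treatment of multi-mapped reads is stated, so members with overlapping genes or near-identical copies are uncertain.

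From these counts, edgeR 4.0.16 in R 4.3.3 fitted 1 quasi-likelihood model over 6 groups, with TMM scaling, genes kept by filterByExpr (16027) and Benjamini-Hochberg adjustment at 0.05. SE is that of the log2 fold change. limma 3.58.1 and DESeq2 1.42.0 served alternatives, and the scripts were tested on simulated data. Other alternatives changed scaling, filters, the samples fitted, a replicate block, a sex term and left-out libraries. Named genes were the 4 highest and 4 lowest called members per comparison, a fixed set of subunits, and up to 3 genes of smallest p per further list. Members and lists were chosen with earlier results of these data known. Other genes were named after their values were seen. The result of 1 member is not reported here.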

Additional observations from a re-analysis of the deposited data

Results flagged for a closer look

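For 26 members the response to imiquimod differed between knockout and Cre-negative skin by a test of the difference itself (edgeR's quasi-likelihood test on the interaction term, Benjamini-Hochberg adjusted p from 0.0025 to 0.049 over all genes tested). All 26 values are negative, so the log2 fold change of imiquimod against DMSO was lower in knockout skin.

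In complex I the differences were −2.12 for Ndufs8, −1.88 for Ndufv1, −1.82 for Ndufa12, −1.62 for Ndufa8, −1.50 for Ndufs6, −1.42 for Ndufa9, −1.38 for Ndufs4, −1.30 for Ndufb5, −1.30 for Ndufc1 and −1.13 for Ndufc2. In complex III they were −2.09 for Uqcr10, −1.99 for Uqcr11, −1.97 for Uqcrq, −1.78 for Uqcrc2 and −1.68 for Uqcrc1. In complex IV they were −2.47 for Cox6b1, −2.03 for Cox6a1, −1.81 for Cox5b, −1.60 for Cox7b and −1.58 for Cox7a2. In complex V they were −1.85 for Atp5d, −1.80 for Atp5mpl, −1.71 for Atp5h, −1.62 for Atp5b, −1.40 for Atp5g1 and −1.38 for Atp5a1.

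These rest on 2 imiquimod and 3 DMSO libraries per genotype. All knockout imiquimod libraries were male and all knockout DMSO libraries female, so the knockout response cannot be told apart from sex. A sex term left 8 of the 26 calls, and library size alone gave 4 members higher and 2 lower. In 10 fits that left out 1 library, Ndufa9 and Ndufc2 kept the call in 1, Ndufc1, Ndufs4 and Ndufs6 in 2, and Uqcr10, Uqcr11 and Ndufs8 in 3. Members not on this list were not shown to respond alike in both genotypes.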

How the results depend on the processing

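Counts are members called of 80 tested (81 with no filter, 77 with the stricter filter, 79 or 80 in fits of only the groups compared). Scaling by library size alone, under which the median of all genes ran from −0.76 to 0.84 on the log2 scale, gave 2 (0 higher) and a median of −0.13 in knockout against Cre-negative DMSO skin, 6 and −0.67 under imiquimod, 4 (0 higher) and −0.0301 for imiquimod in Cre-negative skin, 2 and −0.45 in knockout skin, 7 (0 higher) and −0.29 in wild-type skin, 6 (4 higher) and −0.46 for the difference of responses, and 4 (0 higher) and −0.11 in knockout against wild-type skin. The medians of both DMSO comparisons and of imiquimod in Cre-negative and wild-type skin thus changed sign, and the cause was not tested. Median-of-ratios and upper-quartile scaling moved no count by over 1.5 times.

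In the order knockout against Cre-negative with DMSO, the same with imiquimod, imiquimod within Cre-negative, within knockout and within wild-type skin, the difference of responses, and knockout against wild-type, other settings gave these values. No filter on low counts gave 3 in the first, 4 in knockout skin, 17 in wild-type skin and 2 in the last. A stricter filter gave 4 in knockout skin and a median of 0.30 in wild-type skin. DESeq2 gave 5, then 11 in knockout skin, 15 in wild-type skin and 9 in the last. Fits of only the groups compared gave 8 in the second, 0 in knockout skin, 2 in wild-type skin and 1, lower, in the last. A sex term gave 0 in the first (2 with an unadjusted p under 0.05), 4 (2 higher) in Cre-negative skin, 0 in knockout skin (9 unadjusted) and 8 for the difference. Without the 2 libraries highest in 18S RNA, the counts were 8 in the second, 2 in Cre-negative skin, 26 in wild-type skin, 15 (1 higher) with a median of −0.97 for the difference, and 3 with 0.22 in the last. Without the 3 libraries of TMM factors under 0.75, an alternative added after seeing the data, they were 2 with a median of 0.0696, 14, 4 with 0.23, 14, 5, a median of −0.87 for the difference, and 2 with 0.15.

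Leaving out 1 library gave ranges of 1 to 3 (median 0.10 to 0.29), 1 to 24 (−1.32 to −0.75), 1 to 13 (0.28 to 0.95), 0 to 6 (−0.77 to −0.49), 0 to 19 (0.33 to 0.55), 6 to 31 (−1.59 to −0.97) and 0 to 3 (0.16 to 0.44). A lone library was then assumed to vary like the other groups.

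With the replicate number as a block, the counts were 1, 28, 13, 5, 11, 28 and 3. The last 3 all fell and shared 0 with the main result, where 1 rose. Across 31 pairs with the same number, the deviations from group means correlated at −0.32 to 0.49 (median 0.06). The 50 pairs with different numbers ran from −0.49 to 0.37 (median −0.01). In a group of 2 libraries the deviations are equal and opposite. Many pairs with different numbers therefore mirror a pair with the same number and are no separate reference. Replicate 1 of knockout DMSO, knockout imiquimod, wild-type imiquimod and Cre-negative DMSO skin correlated with each other at 0.26 to 0.49. With replicate 1 of Cre-negative imiquimod skin these libraries correlated at −0.32 to −0.06. The numbers were thus not shown to pair libraries. Depth limits Cox6b2 and Cox4i2, with at most 25 counts in a library.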
